A study of Sus scrofa with 3 samples.

Results

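The signals of 63 cytosolic ribosomal protein genes were followed across 3 cultures of PIE cells, a line of intestinal epithelial cells taken from an unsuckled newborn pig and not transformed. The genes were taken by name and not by their values. A probe entered when the array design gave it the symbol of a protein of the small (40S) or large (60S) ribosomal subunit, or when its description named such a protein. Of 43603 probes on the array, 242 entered, 202 by symbol and 40 by description. A gene was read from its brightest probe, and the 63 genes stand among 6530 genes with a symbol. They comprised 24 proteins of the 40S subunit, 28 of the 60S subunit, 4 paralogs (RPL7L1, RPL10L, RPL26L1 and RPL36AL) and 7 entries that the array describes only as similar to a ribosomal protein.

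All cells were cultured for 3 days. They then received control medium, Lactobacillus jensenii TL2937 or Lactobacillus plantarum TL2766 for 48 h and were washed. Every culture was then exposed for 12 h to ETEC PAMPs, the molecular patterns by which cells recognise enterotoxigenic Escherichia coli as a pathogen. ETEC names the group without lactobacilli, and TL2937+ETEC and TL2766+ETEC name the groups with them. Each had 1 array, hybridised with RNA labelled with Cy3 from 200 ng. The unchallenged group that the design also lists was not analysed here, and no group received lactobacilli without PAMPs. With 1 array per group there is no spread between replicates, so no difference below has a test.

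Ribosomal proteins fold with ribosomal RNA into the particles that make all cellular protein, and dividing cells spend a large part of their transcription on them. Their mRNAs start with a terminal oligopyrimidine tract (TOP), through which mTOR signalling sets their translation more than their amount. Ribosomal proteins are usually made in near fixed proportions. A few members have roles outside the ribosome: RPL5 and RPL11 bind MDM2 when assembly is disturbed, and RPS6 is the target of the S6 kinases.

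Levels are given as scaled intensity, the processed fluorescence after each array was divided by its own 75th percentile, which was 461 for ETEC, 505 for TL2937+ETEC and 483 for TL2766+ETEC. Where 3 values follow each other without a group, they are in that order. A log2 difference of 0 means equal scaled intensity on 2 arrays. Between 60.9% and 62.5% of the spots per array were well above background by the scanner's flag, and no spot was saturated. For 27 probes printed 5 times, the median standard deviation of a log2 difference over the spots was 0.11 for TL2937+ETEC against ETEC and 0.082 for TL2766+ETEC against ETEC. Between both lactobacillus arrays it was 0.087. This spread covers spots of a probe, not cultures. Of 8 epithelial markers on the array, only KRT8 and CLDN7 were detected on every array, both at scaled intensities of 24 or less, while KRT18, EPCAM, CLDN4 and ESRP1 were detected on none. The summed level of the 8 lay between 96.9 and 106. The 6 markers of fibroblasts and stroma were all detected, with a sum between 243053 and 252617 that was nearly all vimentin (VIM). The others of that list had scaled intensities between 28.5 and 82.8. Endothelial PECAM1 and CDH5 had 55889 or more, while KDR had between 532 and 798. VWF, also endothelial, had 22.7 or less and was detected on 2 arrays. The defining epithelial markers were therefore at or near background on these arrays. The summed stromal level was 251779 in ETEC, 243053 in TL2937+ETEC and 252617 in TL2766+ETEC. That of 3 smooth muscle markers, mostly ACTA2, was 56239, 44143 and 49637, highest in ETEC and lowest in TL2937+ETEC as most ribosomal protein genes were. The sums were 147532, 141499 and 142040 for 4 endothelial markers and 669, 767 and 788 for 5 leukocyte markers, of which PTPRC was detected on no array. The part of these markers in the differences was not tested.

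Nearly all ribosomal protein genes had slightly less signal in cells that had met L. jensenii TL2937 than in cells without lactobacilli. Over the 60 members detected on every array, the median log2 difference was -0.12, which is 1.08-fold lower, and 52 of 60 lay below 0. The same count over all 4984 genes measured on both arrays was 58.9%, with a median of -0.038, and among the brightest genes (those above the 75th percentile of all gene means) it was 69.3%, with a median of -0.064. At least 1.2-fold lower were 0 members, where 12.3% of all genes were, and at least 1.2-fold higher was 1 member (RPS9), where 7.4% of all genes were. No member reached 2-fold in either direction, against 0.241% of all genes higher and 0.14% lower. The genes of the 40S subunit had a median of -0.12 and those of the 60S subunit -0.13.

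In cells that had met L. plantarum TL2766 the shift relative to ETEC was smaller. The median over the 60 members was -0.056, with 50 of 60 below 0, where 49.3% of all 4958 genes lay below 0 and their median was 0.0025, and 51.7% of the brightest genes did. With the arrays scaled on their spike-in controls the count was 35 of 60, with a median of -0.013, where all genes had 0.046. With quantile scaling it was 41 of 60, with a median of -0.028, where all genes had -0.0011. Relative to the median of all genes, in the main setting, it was 50 of 60. RPS6 was at least 1.2-fold lower, where 8.75% of all genes were, and the L10-like entry LOC100623560 was at least 1.2-fold higher, where 8.11% were. None was 2-fold higher or lower, against 0.323% and 0.242% of all genes. The 40S genes had a median of -0.073 and the 60S genes -0.067. This comparison shares the ETEC array with the one before it, so the pair of medians are not independent of each other.

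Set directly against each other, the lactobacillus arrays differed little. The median of TL2937+ETEC minus TL2766+ETEC was -0.047 over the members and -0.042 over all genes. Of the members 49 of 60 lay below 0, where 65.2% of all genes and 79% of the brightest genes did. With other scalings the count below 0 was 38 (quantile), 40 (spike-in) and 25 (cyclic loess, with a median of 0.015). Relative to the median of all genes it was 32, and relative to that of the brightest genes 24. RPS6 was at least 1.2-fold higher in TL2937+ETEC, where 4.22% of all genes were, and LOC100623560 was at least 1.2-fold lower, where 7.22% were. No member reached 2-fold, against 0.08% of all genes higher and 0.2% lower.

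**Figure D1:**
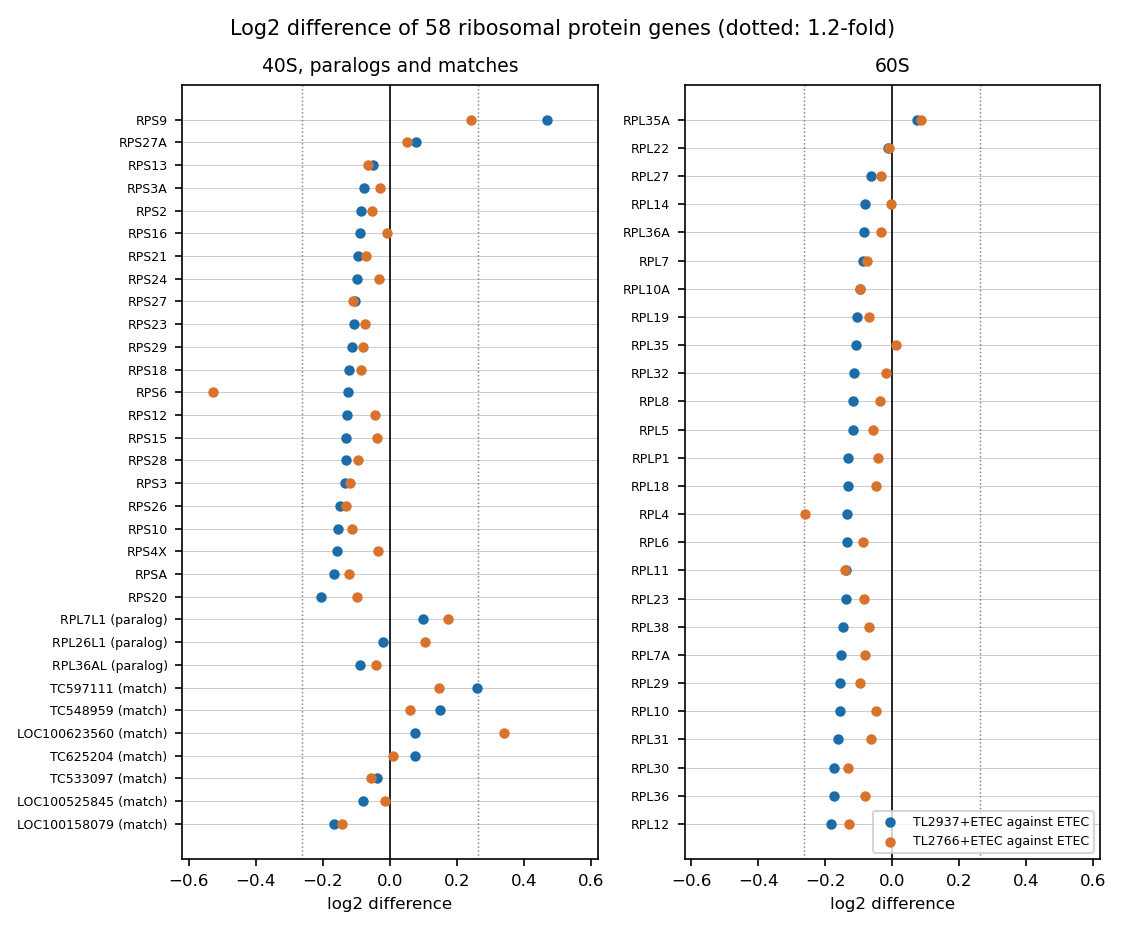
Log2 difference (horizontal axis) of 58 of the 60 ribosomal protein genes detected on all arrays, for TL2937+ETEC against ETEC (blue) and TL2766+ETEC against ETEC (orange), 1 point per gene and comparison. Most points sit just left of 0 and inside the dotted 1.2-fold lines, while RPS9, RPS6 and LOC100623560 lie outside them.

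Most member probes were bright, and the brightest probes of other genes also lay mostly below 0 against ETEC. Brightness depends on the probe as well as on the transcript, so it is used here to sort spots and not to rank genes. Of the 60 members 40 had a mean log2 level more than 7 above the 75th percentile. All 40 lay below 0 in TL2937+ETEC against ETEC, with a median of -0.13. The 123 other genes above that level had a median of -0.12, with 106 below 0. In TL2766+ETEC against ETEC the medians were -0.070 for the members and -0.049 for the other bright genes, with 39 of 40 and 84 of 123 below 0. That rests on the level chosen: over the 1182 non-member genes above the 75th percentile of all gene means, the median in TL2766+ETEC against ETEC was -0.00030, with 591 below 0. The members and the other bright genes thus had similar medians in the first comparison, and the members had the narrower spread. In the TL2937+ETEC comparison the standard deviation of the log2 difference was 0.034 over the 40 members and 0.15 over the 123 other genes.

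The same dependence on level appeared within the ribosomal protein genes. Of the 51 members above the 75th percentile, 49 lay below 0 in TL2937+ETEC against ETEC and 47 in TL2766+ETEC against ETEC. Of the 9 members at or below it, 3 did in each comparison, and their medians were 0.074 and 0.060. Over the 214 member probes above the 75th percentile, the log2 difference correlated with the mean log2 level at -0.43 in the TL2937+ETEC comparison and at -0.35 in the TL2766+ETEC comparison. These probes share arrays and many share a transcript. With cyclic loess scaling, which removes a trend of difference with level, the median over the members was -0.031 in TL2937+ETEC, where all genes had -0.019, and -0.049 in TL2766+ETEC, where all genes had -0.0025. The part of signal level in the shift was not tested beyond these values.

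**Figure D2:**
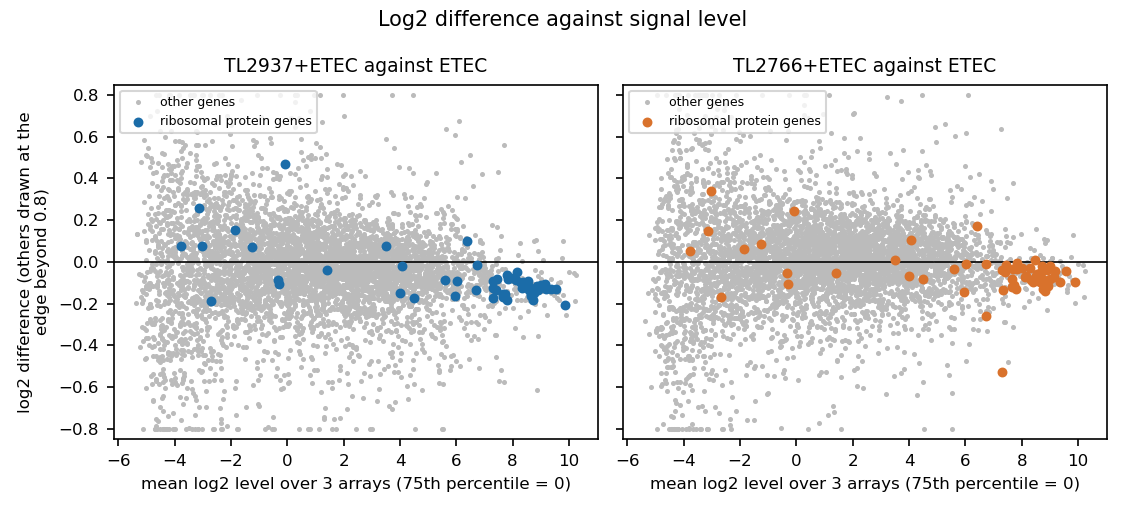
Log2 difference (vertical axis) against mean log2 level over the 3 arrays (horizontal axis, 0 is the 75th percentile) for TL2937+ETEC against ETEC (left) and TL2766+ETEC against ETEC (right), 1 point per gene. Ribosomal protein genes (coloured) gather at the bright end just below 0, and other genes (grey) at that end lie around the same height with a wider scatter.

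Proteins of the 40S subunit hold the mRNA and frame the decoding centre. RPS20, which lies in the head of the subunit, had the largest difference of the 40S genes below 0 in TL2937+ETEC against ETEC. RPS20 had a scaled intensity of 487480 in ETEC, 422694 in TL2937+ETEC and 455310 in TL2766+ETEC, log2 differences from ETEC of -0.21 and -0.098, which quantile scaling brought to -0.054 and -0.0094. All 7 of its probes lay below 0 on both lactobacillus arrays.

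RPSA, the laminin receptor precursor that also sits in the 40S subunit, had 104173 in ETEC, 92755 in TL2937+ETEC and 95696 in TL2766+ETEC. Its 6 probes ranged from -0.17 to 0.014 in the TL2937+ETEC comparison and from -0.12 to 0.15 in that of TL2766+ETEC, where the median of its probes was 0.0083. RPS3, which lines the mRNA entry channel, had 246837, 225085 and 227444, the lactobacillus arrays close together and both below ETEC. RPS18, at the head of the subunit, had 164102, 150645 and 154554, and all 4 of its probes lay below 0 in each comparison with ETEC.

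RPS4X, a protein of the 40S subunit, was read by 15 probes, the widest view of any 40S member. Its brightest probe had 103297 in ETEC, 92563 in TL2937+ETEC and 100820 in TL2766+ETEC. All 15 probes lay below 0 in TL2937+ETEC, from -0.22 to -0.033, and 14 of 15 did in TL2766+ETEC, from -0.24 to 0.020. The brightest probe set the lactobacillus arrays apart by -0.12, while the median over its probes was -0.062.

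RPS9, which binds ribosomal RNA early in assembly, went the other way. Its scaled intensity was 390 in ETEC, 541 in TL2937+ETEC and 462 in TL2766+ETEC, log2 differences of 0.47 and 0.24. It was highest on the TL2937+ETEC array and lowest on the ETEC array, and over 12 processing settings its difference ranged from 0.45 to 0.54 in TL2937+ETEC. RPS9 rests on 1 probe, named from its description as part of a transcript like human RPS9, and its signal lies near the 75th percentile of the array. RPS27A, made as a fusion with ubiquitin, was also read by 1 dim described probe, with 34.0, 35.9 and 35.2, and its small difference of 0.078 in TL2937+ETEC became -0.12 with another background correction. RPS27, a zinc finger protein of the 40S subunit, had 415, 386 and 385, but its second, dimmer probe gave 0.15 in TL2937+ETEC.

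**Figure D3:**
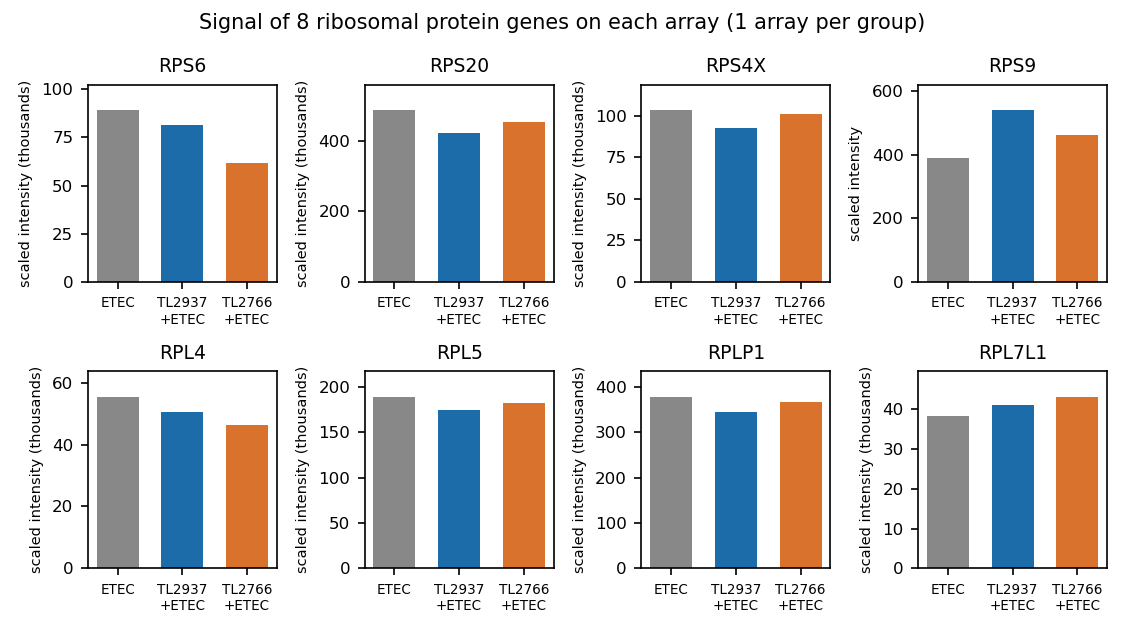
Scaled intensity (vertical axes from 0, with the multiplier on each axis label) of 8 ribosomal protein genes in ETEC, in TL2937+ETEC and in TL2766+ETEC, 1 bar per array and no error because each group had 1 array. RPS6 and RPL4 are lowest in TL2766+ETEC, RPS20, RPS4X, RPL5 and RPLP1 are lowest in TL2937+ETEC, and RPS9 and RPL7L1 are lowest in ETEC.

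RPS6 had the largest difference of any member. Its scaled intensity was 89083 in ETEC, 81646 in TL2937+ETEC and 61767 in TL2766+ETEC. The TL2766+ETEC array stood apart, at a log2 difference of -0.53 from ETEC (1.44-fold lower), while TL2937+ETEC differed by -0.13 like most members. RPS6 rests on the following probe, shown because no other probe of the gene can be set beside it. It has 1 reading frame without a stop codon.
RPS6 probe: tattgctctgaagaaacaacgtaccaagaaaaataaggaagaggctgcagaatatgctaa

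A second member probe with a similar gap lay on the same row of the array. It was 1 of 16 probes of RPL7, a 60S protein, and had 42126 in ETEC, 37758 in TL2937+ETEC and 31160 in TL2766+ETEC, a difference of -0.44 between the last and ETEC. The other 15 RPL7 probes ranged from -0.13 to -0.0074 in that comparison. Beside the RPS6 spot, 44 spots of that array row were detected on every array. They had a median of -0.018, and 2 of the 21 bright ones, the RPL7 spot among them, were at -0.36 or below. Around the RPS6 probe, 108 spots within 8 rows and 8 columns had a median of -0.061, and 2 of the 44 bright ones were at -0.36 or below. Around the RPL7 probe, 12 columns away, 160 spots had a median of -0.029, and 0 of the 68 bright ones were at -0.36 or below. The probes share a row, but neither lies within 8 columns of the other. The part of the array surface in their values was not tested.

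Proteins of the 60S subunit belong to the particle that holds the peptidyl transferase centre and the exit tunnel. RPL5, which carries the 5S RNA into the particle, was read by 18 probes, more than any other member. Its brightest probe had 189183 in ETEC, 174405 in TL2937+ETEC and 181762 in TL2766+ETEC. All 18 probes lay below 0 in TL2937+ETEC, from -0.14 to -0.014, and 17 of 18 did in TL2766+ETEC, from -0.14 to 0.062. These probes are not independent readings, since many overlap. The pair printed next is shown as an example, with the stretch of 39 letters that they share in capitals. The first had 59299, 54925 and 55236 and the second 68352, 62052 and 63770 on the 3 arrays in the order above.
RPL5 first probe: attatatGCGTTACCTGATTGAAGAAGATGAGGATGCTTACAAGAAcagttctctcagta
RPL5 second probe: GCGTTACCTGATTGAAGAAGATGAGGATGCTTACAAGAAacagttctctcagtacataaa

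RPL11, the partner of RPL5 in binding MDM2, had 233321 in ETEC, 212186 in TL2937+ETEC and 211477 in TL2766+ETEC. Its 3 brightest probes lay below 0 in both comparisons with ETEC, and its remaining probe, just above the 75th percentile with 712, 770 and 737, lay above 0. RPL4, which reaches into the exit tunnel, had 55458, 50510 and 46320. Like RPS6 it was lowest in TL2766+ETEC, at -0.26, and like RPS6 it rests on 1 probe. RPL10, a late-joining protein of the subunit, had 208390, 186992 and 201518, and RPL12, at the base of the stalk, had 115781, 102080 and 105759. Both were lowest in TL2937+ETEC, at -0.16 and -0.18. RPL12 also has a dim probe, with 206, 248 and 256, that lay above 0 on both lactobacillus arrays.

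RPL36 had 11565, 10247 and 10920, a difference of -0.17 in TL2937+ETEC. RPL30, a small protein that also regulates its own splicing in yeast, had 82667, 73296 and 75379, differences of -0.17 and -0.13. RPL35, at the tunnel exit, had 174879, 162240 and 176084, so that only the TL2937+ETEC array was low. RPL22, which is dispensable in many tissues, showed almost no difference in its brightest probe, with 51450, 50943 and 51098, whereas its other bright probe had 40716, 37457 and 40516. Its dim probe had 28.1, 22.9 and 19.3, differences of -0.29 and -0.54. The bright probes of 1 gene could thus differ by about as much as the shift itself. Among dim probes the gaps were wider: in RPS23, a 40S protein of the decoding centre, 4 bright probes lay between -0.18 and -0.093 in TL2937+ETEC, while a dim probe had 103, 189 and 132, a difference of 0.87. Of the 20 member probes at or below the 75th percentile in that comparison, 12 lay above 0 and 8 below. Past 1.2-fold there were 5 higher and 4 lower ones. Of all 25803 probes measured in it, at any level, 52.7% lay below 0, and past 1.2-fold 3198 were higher and 3158 lower.

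The acidic P proteins form the flexible stalk that recruits the elongation factors. RPLP1 was the member of this group on the array, and no probe entered as RPLP0 or RPLP2. Its scaled intensity was 378593 in ETEC, 345633 in TL2937+ETEC and 367607 in TL2766+ETEC. Its 4 bright probes lay between -0.18 and -0.11 in the TL2937+ETEC comparison and between -0.10 and -0.042 in that of TL2766+ETEC. Its dim probe, with 20.3, 26.7 and 24.3, lay at 0.40 and 0.26.

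Where several bright probes read 1 gene, they mostly agreed in sign in TL2937+ETEC against ETEC, and less often in TL2766+ETEC against ETEC. Of 31 members with 3 or more probes above the 75th percentile, 25 had all of them below 0 in TL2937+ETEC against ETEC, 1 had all above 0 and 5 were mixed. The median standard deviation over the probes of a member was 0.036. In TL2766+ETEC against ETEC 16 had all below 0, 2 had all above 0 and 13 were mixed, with a median standard deviation of 0.046. Probes of 1 gene share its transcript, and of 804 pairs of such probes 186 share 14 or more letters.

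**Figure D4:**
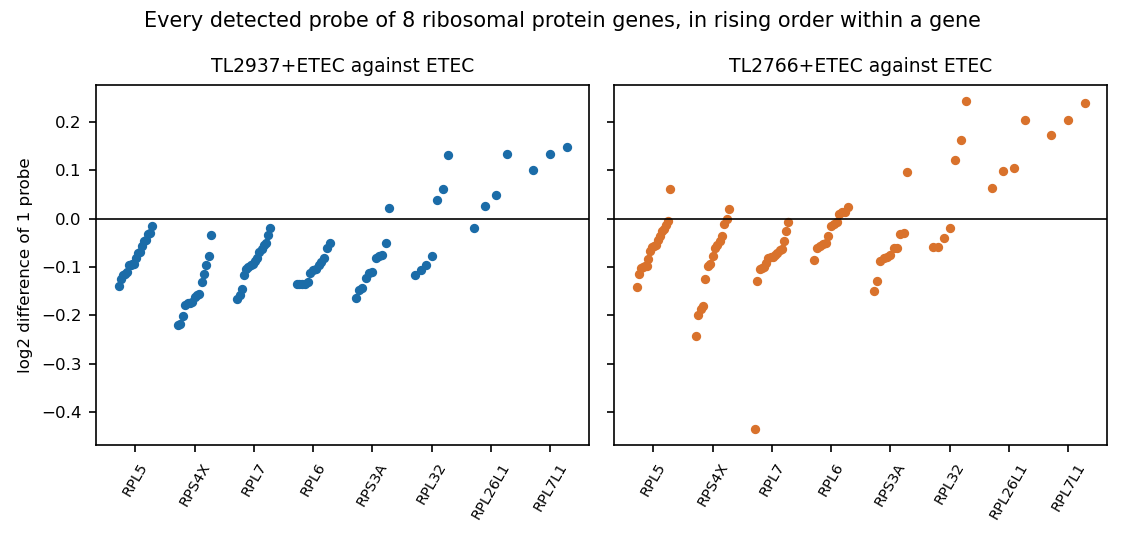
Log2 difference (vertical axis) of every detected probe of 8 ribosomal protein genes (horizontal axis), for TL2937+ETEC against ETEC (left) and TL2766+ETEC against ETEC (right), 1 point per probe in rising order within a gene. The 18 RPL5 probes lie below 0 on the left, the 3 RPL7L1 probes lie above 0 on both sides, RPL32 splits into a lower and an upper set, and 1 RPL7 probe lies far below the rest on the right.

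RPL32, a 60S protein, was the clearest exception. Its 7 probes fell into 2 sets. The 4 brightest, with scaled intensities in ETEC between 210703 and 255361, lay between -0.12 and -0.076 in TL2937+ETEC and between -0.059 and -0.019 in TL2766+ETEC. The other 3 are printed here because they lay on the opposite side of 0, and each holds 2 reading frames without a stop codon. None of them shares 14 letters with the bright probes.
RPL32 probe A: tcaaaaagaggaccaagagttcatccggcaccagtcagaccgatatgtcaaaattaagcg
RPL32 probe B: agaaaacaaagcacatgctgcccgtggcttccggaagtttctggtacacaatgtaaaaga
RPL32 probe C: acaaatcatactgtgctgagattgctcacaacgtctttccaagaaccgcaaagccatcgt

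Probe A had 35765 in ETEC, 39202 in TL2937+ETEC and 42352 in TL2766+ETEC, differences of 0.13 and 0.24. Probe B had 68403, 70248 and 74428, differences of 0.038 and 0.12. Probe C had 85165, 88848 and 95329, differences of 0.061 and 0.16. All 3 were lowest in ETEC and highest in TL2766+ETEC, an order that the bright set did not show. Which transcripts each set binds cannot be read from these data.

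The measured paralogs did not lie on 1 side of 0. RPL7L1, a relative of RPL7 that works in ribosome assembly, had 38232 in ETEC, 40980 in TL2937+ETEC and 43106 in TL2766+ETEC. All 3 of its probes lay above 0, from 0.10 to 0.15 in TL2937+ETEC and from 0.17 to 0.24 in TL2766+ETEC, and its own difference stayed above 0 under all 12 settings. RPL7 itself had 138072, 130036 and 131139 and lay below 0 in all 16 probes on both lactobacillus arrays. The paralog and its relative thus lay on opposite sides of 0.

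RPL26L1, a close copy of RPL26, had 8013 in ETEC, 7905 in TL2937+ETEC and 8623 in TL2766+ETEC. Its 4 probes ranged from -0.020 to 0.13 and from 0.063 to 0.20, all 4 lying above 0 in TL2766+ETEC. The probe with the largest differences, printed next, had 2826, 3103 and 3255. Probes of close copies may bind transcripts of each other, and RPL26 itself was no member here.
RPL26L1 probe: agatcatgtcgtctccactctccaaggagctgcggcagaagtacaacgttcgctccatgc

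RPL36AL, a copy of RPL36A, had 78048, 73310 and 75848, and RPL36A had 24164, 22779 and 23581. By these probes both genes were lowest in TL2937+ETEC, at -0.090 and -0.085. The other RPL36AL probe was highest there, at 0.042 from ETEC, and lay at -0.045 in TL2766+ETEC against ETEC. RPL10L, a copy of RPL10 best known from testis, was detected on the TL2937+ETEC array alone, with 18.7, and it was not well above background in ETEC (11.1) and TL2766+ETEC (4.78). The lowest signal detected on those arrays was 12.9 in ETEC and 11.8 in TL2766+ETEC. An undetected probe can lie above it, as EPCAM did with 13.2 and 12.8, so no fold is given for RPL10L. RPL24 and RPL9, of the 60S subunit, were each read by 1 described probe that was not well above background on any array.

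The 7 entries named only by likeness did not follow the core members as a set. The L17-like LOC100158079 had 31877 in ETEC, 28413 in TL2937+ETEC and 28845 in TL2766+ETEC, and the L32-like LOC100525845 had 85829, 81107 and 84967. These bright entries lay below 0, as the core members did. The LOC100525845 probe shares 22 letters with a probe of the bright RPL32 set, so it may not be a separate reading. LOC100623560, described as similar to L10, had 53.6, 56.5 and 67.8, highest in TL2766+ETEC at 0.34, a value that dropped to 0.068 with another background correction. TC597111, a weak match to a midge L6 protein, had scaled intensities between 50.04 and 59.9, lowest in ETEC, and log2 differences of 0.26 and 0.15, which normexp brought to 0.013 and 0.022. The remaining entries ranged from -0.038 to 0.15 in TL2937+ETEC and from -0.055 to 0.060 in TL2766+ETEC.

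Other genes of the pathway were read from related lists. Translation factors and other TOP mRNAs, which share the regulated start of the ribosomal protein mRNAs, gave values like theirs. Of the 12 measured, 12 lay below 0 in TL2937+ETEC against ETEC, with a median of -0.13, and 11 in TL2766+ETEC against ETEC, with a median of -0.065, and 0 were at least 1.2-fold higher or lower. Of all genes 58.9% and 49.3% lay below 0 in these comparisons. At least 1.2-fold higher were 7.4% and 8.11% of them, and 12.3% and 8.75% were at least 1.2-fold lower. The 123 non-member genes with a mean log2 level above 7 had medians of -0.12 and -0.049, with 106 and 84 below 0. That bright group takes in the brightest of this list, such as TPT1. The part of the shared start in these values was not tested. EEF1B2, an exchange factor of elongation, had 1971 in ETEC, 1697 in TL2937+ETEC and 1800 in TL2766+ETEC. PABPC1, which binds the poly(A) tail, had 83556, 72903 and 76496. TPT1, the translationally controlled tumour protein, had 340343, 310172 and 335633.

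Ribosome biogenesis factors, which make and modify the ribosomal RNA and build the particles, lay on the other side. Of 22 measured, 17 lay above 0 in TL2937+ETEC against ETEC, with a median of 0.079, and 1 was at least 1.2-fold higher and 0 lower, where 7.4% and 12.3% of all genes were. In TL2766+ETEC against ETEC 20 of 22 lay above 0, with a median of 0.14, and 5 were at least 1.2-fold higher and 0 lower, where 8.11% and 8.75% of all genes were. Both medians stayed above 0 under all 12 settings, from 0.065 to 0.14 and from 0.13 to 0.19. NOP56, a core protein of the methylation particles, had 19695 in ETEC, 22785 in TL2937+ETEC and 24406 in TL2766+ETEC. IMP3, of the small subunit processome, had 477, 532 and 626. NAT10, which acetylates ribosomal RNA, had the largest differences, 0.39 and 0.52, at a dim 22.3, 29.2 and 32.1. DDX21, a nucleolar helicase, had 6551, 5586 and 6568, low in TL2937+ETEC alone.

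Mitochondrial ribosomal proteins, which build the separate ribosome of that organelle, had medians of 0.022 and 0.070 over 16 genes. At least 1.2-fold lower was 1 of them in each comparison, the dim MRPL40, with 19.7 in ETEC, 16.03 in TL2937+ETEC and 15.9 in TL2766+ETEC, and 0 were at least 1.2-fold higher. Of all genes 12.3% and 8.75% were at least 1.2-fold lower, and 7.4% and 8.11% were at least 1.2-fold higher. MRPL32 had 19035, 19141 and 21427, and MRPL18 had 16014, 16381 and 17981, both highest in TL2766+ETEC. MRPL2 had 1358, 1459 and 1493. Regulators of ribosomal protein synthesis had medians of -0.075 and 0.011 over 12 genes, the second changing sign with the background correction, the scaling and the filter. EIF4EBP2, which represses cap-dependent translation, was highest in TL2937+ETEC, with 1688 in ETEC, 2149 in TL2937+ETEC and 1914 in TL2766+ETEC. TSC1, a brake on mTOR, was dim, with 20.3, 23.7 and 28.6, and RPTOR, a part of mTOR complex 1, had 26.8, 25.9 and 30.6. Chaperones of the ribosome and nascent chain had a median of 0.066 over 4 genes in TL2766+ETEC against ETEC, and in TL2937+ETEC against ETEC a median of 4.75e-05 whose sign changed with the processing. NACA, which meets the nascent chain and is also in the TOP list, had 42328, 37734 and 39614. TSR2, a chaperone of RPS26, had 387, 411 and 415, and BCCIP had 16134, 15900 and 16737.

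**Figure D5:**
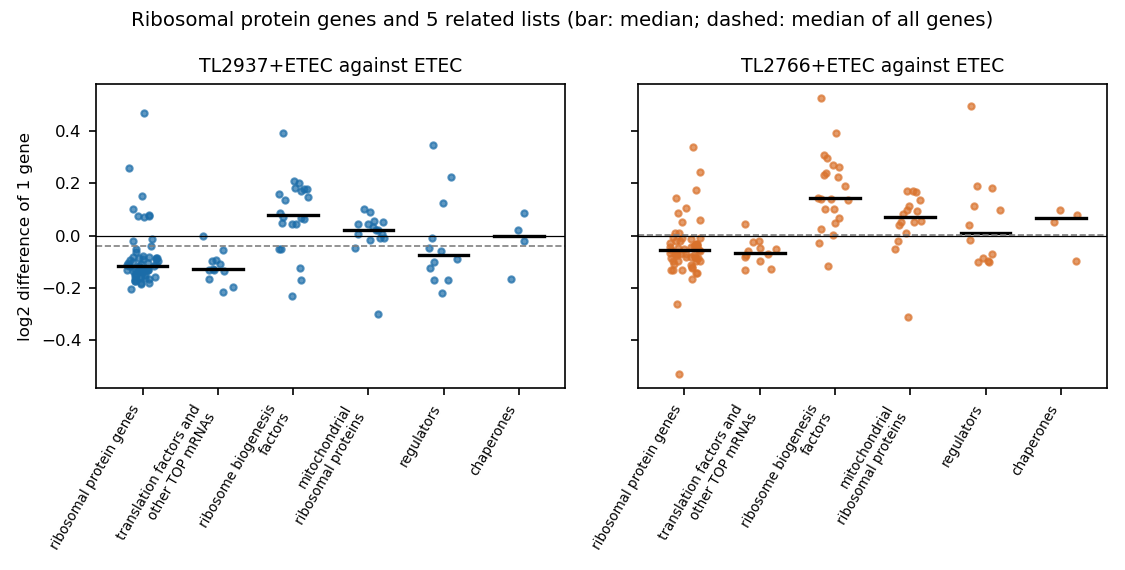
Log2 difference (vertical axis) of the 60 ribosomal protein genes and of 5 related lists (horizontal axis) for TL2937+ETEC against ETEC (left) and TL2766+ETEC against ETEC (right), 1 point per gene, with the list median as a black bar and the median of all genes as a dashed line. Ribosomal protein genes and translation factors sit below the dashed line, with medians of -0.12 and -0.13 on the left, and ribosome biogenesis factors sit above it, with medians of 0.079 and 0.14.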

How the data were processed

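RNA of 3 PIE cultures was measured on 1-colour Agilent porcine arrays, all on 1 slide but at different positions. Position, culture and group therefore cannot be told apart. Per the file headers, Agilent Feature Extraction (version 10.7.3.1) made the deposited intensity of each spot, with a spatially fitted background removed and a multiplicative trend corrected; no scaling between arrays is recorded. The authors' value table held the same intensity, rounded, with differences of at most 0.496% and medians of 34.1, 37.7 and 35.7; its scale is linear and uncentred. Each array's 75th percentile of log2 intensity was subtracted here, control spots and outlier spots (8, 9 and 4) were left out, and spots of a probe were averaged. Scaled intensities are linear values times 483, the 75th percentiles' geometric mean. A difference was counted where the probe was well above background on both arrays, and 1.2-fold and 2-fold were the thresholds.

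Names are those of the array design. Of the member probes, 202 of 202 entered by symbol and 4 of the 4 described ones with an entry had the same symbol in RefSeq's table of assembly Sscrofa11.1, used for names only, and 5 probes that this table gives a member's symbol but the rule does not were left out. The members, the lists and the rule for named genes (the 10 largest differences per comparison, members detected on some arrays, a fixed set with known roles, and the 2 genes of each other list that differ most) were chosen with earlier results of these data known. Further members were named after their values were seen: RPL7, RPL32, RPS23, RPL36A, RPL36AL, RPL24, RPL9 and LOC100525845, and of the lists NOP56. A few named genes are left out of the text and of the plot of members, though all counts and medians include them. RPLP0, RPLP2, RPS14, RPS19, RPS27L, RPL13A and RPL22L1 of the fixed set are no members here. Alternatives were normexp correction (offset 50), scaling by quantiles, medians, spike-ins or cyclic loess, the authors' table, other filters, other ways to join probes, and a 1.5-fold threshold. Steps were tested on simulated data. Software comprised R 4.3.3 with limma 3.58.1 and Python 3.11.15 with pandas 2.3.3, numpy 2.4.6 and matplotlib 3.10.9.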

Additional observations from a re-analysis of the deposited data

How the results depend on the processing

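Over 17 settings the median over the ribosomal protein genes ranged from -0.13 to -0.031 in TL2937+ETEC against ETEC, from -0.088 to -0.013 in TL2766+ETEC against ETEC and from -0.056 to 0.015 between the lactobacillus arrays, the last changing sign with cyclic loess scaling and, relative to bright genes (0.0091), with that centring. Relative to the median of all genes, the first pair ranged from -0.088 to -0.012 and from -0.076 to -0.027. Counts at 1.2-fold moved by few genes. In TL2937+ETEC against ETEC, higher genes numbered 1, and 2 with spike-in scaling, with no background filter, relative to all genes and relative to bright genes, and 0 at 1.5-fold and among members above the 75th percentile; lower genes numbered 0, and 1 with no background filter. In TL2766+ETEC against ETEC, lower genes numbered 1, and 2 with median scaling, 3 with no background filter and 0 at 1.5-fold; higher genes numbered 1, and 2 with spike-in scaling and 0 with the stricter filter, at 1.5-fold and among members above the 75th percentile. In the direct comparison, lower genes numbered 1, and 0 with normexp, spike-in scaling, the stricter filter, 1.5-fold, both centrings and members above the 75th percentile; higher genes numbered 1, and 2 with no background filter and both centrings, and 0 at 1.5-fold. The settings with members above the 75th percentile, bright genes as the reference and medians relative to all genes were chosen after seeing the data. The causes of these moves were not tested. Among named members 8, 11 and 8 values in the 3 comparisons moved by more than the spread between spots, among them those of LOC100623560, TC597111 and RPS27A with normexp, those of RPL11, RPL12, RPL22, RPS27 and RPSA with other ways to join probes, and those of RPS20 with quantile scaling. The number of arrays limits every value, and dim probes are limited by signal over background. No paired analysis was possible because each group had 1 replicate.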
